A study of Rattus norvegicus with 8 samples.

Results

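The genes described here encode calcium/calmodulin-dependent kinases, the catalytic subunits of the phosphatase calcineurin, and neurogranin: Camk2a, Camk2b, Camk2d, Camk2g, Camk4, Nrgn, Ppp3ca and Ppp3cb. Members were all probe sets that the platform's probe-to-gene table assigned to exactly one of these 8 symbols, which gave 20 of the 31099 probe sets on the array, for 8 of 14217 genes named there. RNA came from the frontal cortex of male rats of the outbred Sprague-Dawley strain, about 200 g in weight at the start. One group was given olanzapine, an antipsychotic drug, at 2 mg/kg/day by intraperitoneal injection for 21 days, and the other was given saline for the same time, with 20 rats assigned to each. Arrays came from 4 rats of each group, numbered 14, 15, 17 and 19 in saline and 9, 14, 18 and 19 in olanzapine, and each array is one animal. The labels give no age and no interval between the last injection and dissection.

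Calcium that enters a dendritic spine binds calmodulin, and calmodulin then activates kinases and a phosphatase with opposed actions on synaptic proteins. CaMKII, a large holoenzyme built from the products of Camk2a, Camk2b, Camk2d and Camk2g, is among the most abundant proteins of the postsynaptic density and is required for forms of long-term potentiation. CaMKIV, from Camk4, acts largely in the nucleus on transcription factors such as CREB. Calcineurin, whose catalytic subunits come from Ppp3ca and Ppp3cb in brain, dephosphorylates receptors and NFAT factors and takes part in long-term depression. Neurogranin, from Nrgn, is a small postsynaptic protein of forebrain neurons that binds calmodulin when calcium is low.

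None of the 8 genes differed between olanzapine and saline by the adjusted test. Calcineurin held the only 3 member probe sets with a 95% interval wholly below 0 on the scale as deposited: 2 probe sets of Ppp3ca and 1 of Ppp3cb, at -0.29, -0.27 and -0.24 on the log2 scale. A dim probe set of Camk2d had a lower estimate, -0.32, with an interval that included 0. After quantile normalization, which gives every array the same distribution of intensities, the same 3 probe sets differed by -0.019 to -0.0050. As deposited, Camk2a, Camk2b, Camk4 and Ppp3cb each had tested probe sets above and below 0. The untested dim probe sets of Camk2d and Ppp3ca were above 0, where their tested ones were below. The only probe set of Nrgn was at -0.23 with an interval that included 0. The 2 probe sets of Camk2g were too dim to be tested.

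Differences are olanzapine minus saline in log2(intensity + 63.4), from limma with Benjamini-Hochberg adjustment over all 18625 probe sets that were bright enough to test. Of the 20 member probe sets, 15 were tested: 3 each for Camk2a and Ppp3cb, 2 each for Camk2b, Camk2d, Camk4 and Ppp3ca, and 1 for Nrgn. By limma 0 of the 15 passed an adjusted p of 0.05, as did 0% of all tested probe sets, and the smallest adjusted p among members was 0.374. At an unadjusted limma p under 0.05 there were 3 members lower and 0 higher, where 3.73% of all tested probe sets were lower and 4.59% higher. The groups did not overlap for 2 members, both lower in olanzapine, against 2.07% of all tested probe sets that were lower in this way and 2.4% that were higher. Members without overlap numbered 4 without saline 19 and 4 without olanzapine 14, each time 3 lower and 1 higher in olanzapine. In these settings 11.5% and 7.16% of all tested probe sets did not overlap, both directions counted. After quantile normalization 0 members separated, against 1.72% lower and 1.99% higher over all probe sets. Below 0 were 9 of the 15 members, 60% of them, against 44% of all probe sets. Their median difference was -0.12, beside 0.027 over all probe sets tested. The median was -0.077 without saline 15 and -0.19 without olanzapine 14. With the 5 dim probe sets added, all of which were above 0, the median over 20 was 0.060.

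**Figure D1:**
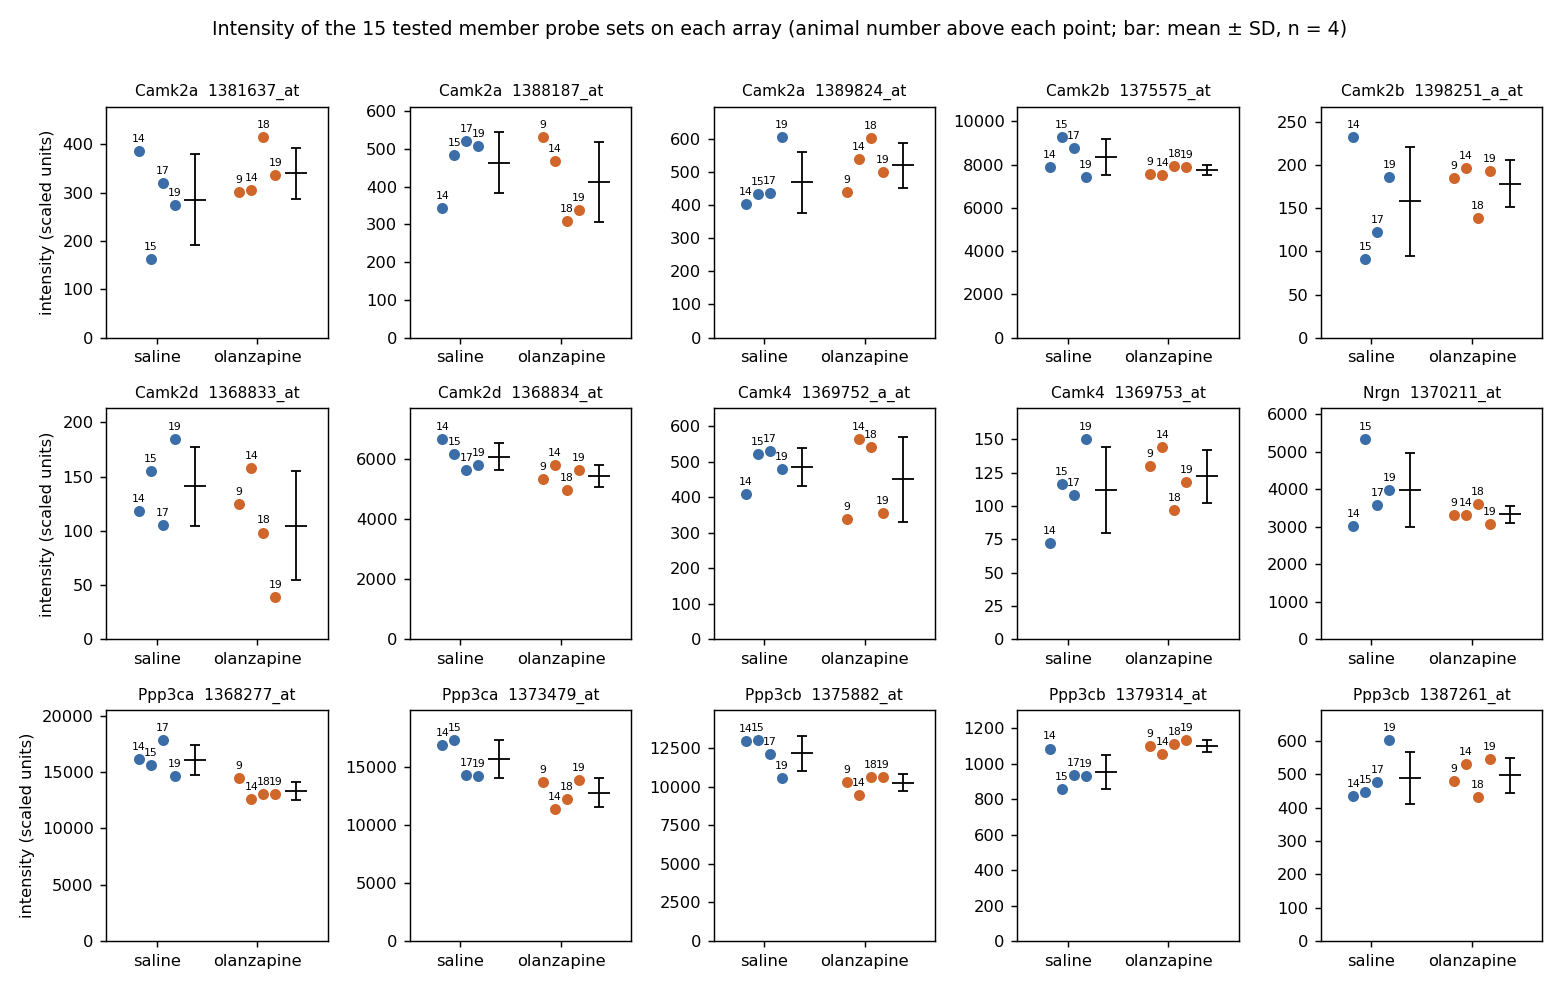
Intensity in the authors' scaled units of the 15 tested member probe sets on each of the 8 arrays; points are single animals with their numbers, and the bars to the right of each group give the mean ± SD of 4 animals. Only the 2 probe sets of Ppp3ca show every olanzapine array below every saline array.

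A few facts of the series bear on these values. The mean intensity of each array after trimming 2% from each end was 500.1 to 500.2, so the arrays had been scaled by the authors to a common level. The upper end of the scale differed, as the 98th percentile of intensity reached 6174 to 6287 on saline 14, 15 and 17 but 5618 on saline 19 and 5474 to 5735 on the olanzapine arrays. Among the brightest 5% of tested probe sets, 827 of 932, or 88.7%, were below 0, their median difference was -0.15, and 18.6% had every olanzapine array below every saline array. After quantile normalization the median of this brightest class was 0.0021. Of the 15 members 5 belonged to it, namely 1 probe set each of Camk2b, Camk2d and Ppp3cb and both of Ppp3ca. All 5 of these were below 0, with a median of -0.24 as deposited and -0.014 after quantile normalization. The other 10 members had a median of 0.060 as deposited and 0.0063 after quantile normalization, and 4 of them were below 0.

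**Figure D2:**
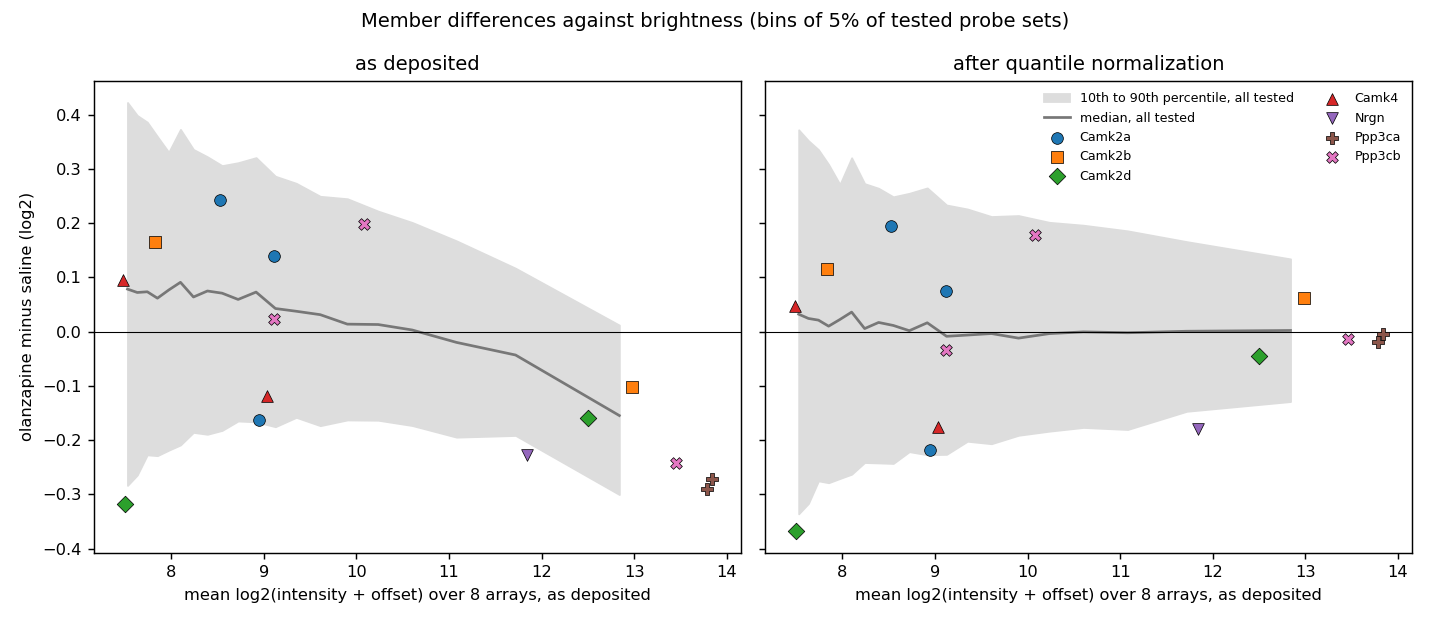
Difference between olanzapine and saline (log2) against mean log2 intensity for the 15 tested member probe sets, with the median and the 10th to 90th percentile of all tested probe sets in bins of 5% by brightness; left as deposited, right after quantile normalization. The median of all probe sets runs from 0.078 in the dimmest bin to -0.15 in the brightest as deposited, and the bright members of Ppp3ca and Ppp3cb move from -0.29 to -0.24 on the left to near 0 on the right.

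Calcineurin is a dimer of a catalytic A subunit and a calcium-binding B subunit, and Ppp3ca encodes the A-alpha isoform, the main one in forebrain neurons. Its first probe set (1368277_at) had intensities of 16172, 15659, 17827 and 14611 in saline 14, 15, 17 and 19. In olanzapine 9, 14, 18 and 19 it had 14457, 12599, 13065 and 13034. The lowest saline array, saline 19, was just above the highest olanzapine array, olanzapine 9, so the groups were apart by a narrow margin. The saline mean was 16067 ± 1341 and the olanzapine mean 13289 ± 807 (SD, n = 4 each), and the log2 difference was -0.27 (SE 0.08, limma adjusted p = 0.374). After quantile normalization it was -0.0050 (SE 0.05).

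The second probe set of Ppp3ca (1373479_at) had 16878, 17278, 14254 and 14222 in the saline arrays, in the same order. In the olanzapine arrays it had 13694, 11357, 12186 and 13868. Again every olanzapine array was below every saline array, with saline 17 and 19 closest to the olanzapine values. The log2 difference was -0.29 (SE 0.09, limma adjusted p = 0.406), and after quantile normalization it was -0.019 (SE 0.06). The 2 probe sets correlated across the 8 arrays at r = 0.70 (exact permutation p = 0.0490) and rho = 0.83 (exact permutation p = 0.0154). Adjusted over the 10 pairs of probe sets compared, these p-values were 0.245 and 0.154 by the same permutation test. Without the 2 arrays farthest from the median r was 0.89, and within groups, after each group's mean was removed, it was 0.20. After quantile normalization r was -0.62. The remaining probe set of Ppp3ca (1398506_at) was too dim to test, at 39.4 to 85.4 in saline and 26.5 to 157 in olanzapine.

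Ppp3cb encodes the A-beta isoform of the catalytic subunit. Its bright probe set (1375882_at) had 12989, 13035, 12148 and 10587 in saline 14, 15, 17 and 19. In olanzapine 9, 14, 18 and 19 it had 10300, 9493, 10673 and 10627. The groups overlapped through saline 19 alone, which lay within the olanzapine range. The log2 difference was -0.24 (SE 0.08, limma adjusted p = 0.458) and -0.014 (SE 0.05) after quantile normalization. Without saline 19 the limma adjusted p was 0.0626 for this probe set and for the first of Ppp3ca, and 0.111 for the second of Ppp3ca. In that setting 107 of all 18625 probe sets passed, and 92 of these were in the brightest 5%.

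The other probe sets of Ppp3cb were not lower in olanzapine. The one at intermediate brightness (1379314_at) had 1087, 856, 936 and 933 in saline and 1099, 1054, 1111 and 1134 in olanzapine. Only saline 14 reached into the olanzapine range, and the difference was 0.20 (SE 0.11, limma adjusted p = 0.680), or 0.18 after quantile normalization. The remaining one (1387261_at) averaged 490 ± 77.3 and 497 ± 51.6 in saline and olanzapine (SD, n = 4 each), with a difference of 0.024 (SE 0.14) that was -0.035 after quantile normalization. The bright and the intermediate probe set were 3.59 log2 units apart in saline and 3.15 in olanzapine. This change of -0.44 had an exact two-sided permutation p of 0.0286, the smallest that 70 assignments of 4 and 4 arrays allow, and 0.286 after adjustment over the 10 pairs. After quantile normalization the change was -0.19 (exact permutation p = 0.0571, 0.571 after adjustment over the 10 pairs).

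The 250 bases before the start of Ppp3ca and of Ppp3cb are shown, in the gene's direction, from RefSeq on GRCr8. All 8 members had an entry. Capitals mark matches on either strand to the CRE half-site TGACG, the NFAT core GGAAA or the Sp1 box GGGCGG. The window of Ppp3ca lies at chr2:227839357-227839606 and that of Ppp3cb at chr15:3809012-3809261, both on the plus strand.
Ppp3ca: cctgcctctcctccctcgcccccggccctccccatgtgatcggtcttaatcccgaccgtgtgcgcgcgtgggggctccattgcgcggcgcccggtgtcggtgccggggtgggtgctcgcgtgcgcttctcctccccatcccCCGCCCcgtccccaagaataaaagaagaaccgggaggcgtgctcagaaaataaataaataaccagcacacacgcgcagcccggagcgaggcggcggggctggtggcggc
Ppp3cb: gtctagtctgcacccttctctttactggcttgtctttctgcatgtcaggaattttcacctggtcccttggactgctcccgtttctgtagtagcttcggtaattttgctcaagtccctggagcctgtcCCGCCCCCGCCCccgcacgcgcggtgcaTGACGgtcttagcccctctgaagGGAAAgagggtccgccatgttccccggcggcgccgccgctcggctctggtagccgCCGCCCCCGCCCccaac
The Ppp3ca window held 1 Sp1 box. The Ppp3cb window held 4 Sp1 boxes, 1 CRE half-site that began 95 bases before the start and 1 NFAT core that began 72 bases before it. Over 33469 windows of the same length in the table, 18.2% held the CRE half-site, 56.9% the NFAT core and 30.5% the Sp1 box. The full CRE, TGACGTCA, which contains the half-site, was in 1.59% of windows and in 0 of the 8 members' windows. These matches describe letters and were set against no measurement.

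**Figure D3:**
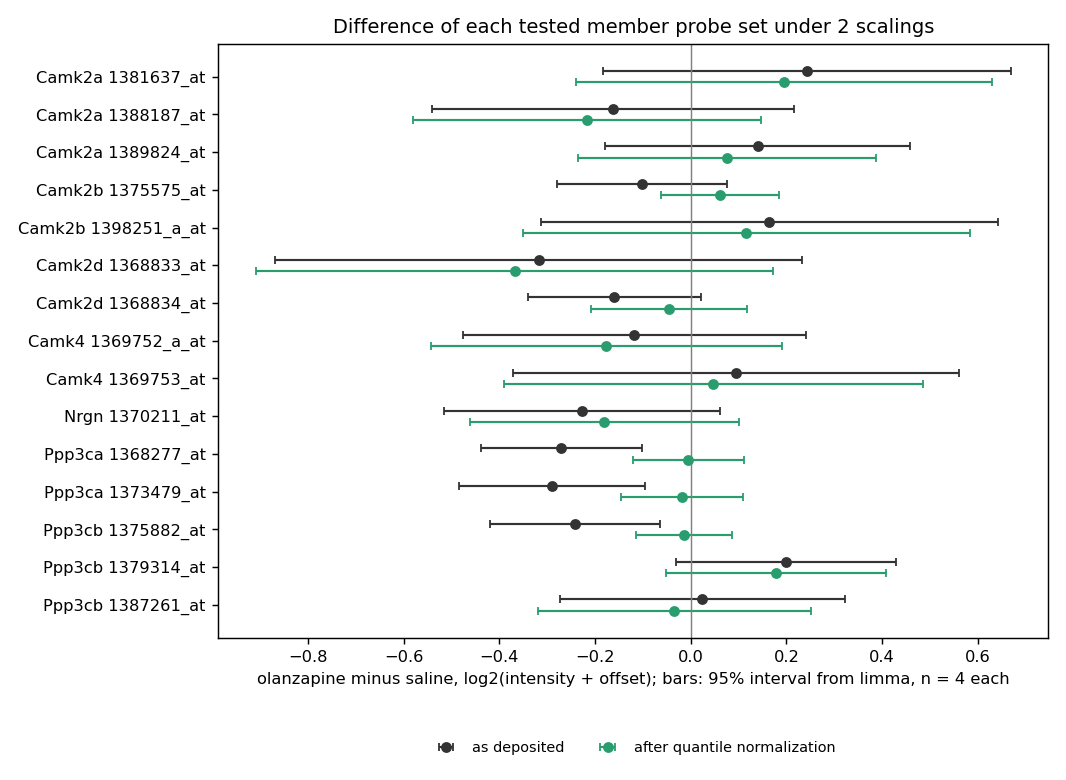
Olanzapine minus saline in log2(intensity + 63.4) for each of the 15 tested member probe sets, as deposited and after quantile normalization; points are limma estimates and bars are 95% intervals from 4 arrays in each group. The 3 intervals that lie wholly below 0 as deposited, those of both Ppp3ca probe sets and of 1 of Ppp3cb, include 0 after quantile normalization.

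Camk2a encodes the alpha subunit of CaMKII, the most abundant one in forebrain excitatory neurons. Its brightest tested probe set (1389824_at) had 404, 433, 437 and 607 in saline 14, 15, 17 and 19 and 440, 541, 604 and 501 in olanzapine 9, 14, 18 and 19. Saline 19 held the highest of these values, and the other 3 saline arrays lay below every olanzapine array. The difference was 0.14 (SE 0.15, limma adjusted p = 0.849), or 0.075 after quantile normalization. It was 0.25 without saline 19 and 0.074 without olanzapine 18. A second probe set (1381637_at) ran from 163 in saline 15 to 387 in saline 14 and from 301 to 416 in olanzapine, a difference of 0.24 (SE 0.20) that was 0.049 without saline 15 and 0.38 without saline 14. The third (1388187_at) ran from 344 to 520 in saline and from 308 to 533 in olanzapine, a difference of -0.16 (SE 0.18). With 1 array left out it was between -0.28, without saline 14, and -0.054, without olanzapine 18. The 3 probe sets thus did not share a direction, and their pairwise r across the 8 arrays was -0.62, 0.22 and -0.18. The dimmest (1368935_at) was at 11.2 to 23.0 in saline and 19.9 to 76.9 in olanzapine and was not tested. The tested Camk2a probe sets lay at percentiles of brightness from 41.8 to 57.4, where the bright ones of Camk2b and Camk2d lay at 98.2 and 96.6. How well they measure the main Camk2a transcript was not tested. Where the probes of these sets lie in the transcript is not given in the sources used here, so the Camk2a values cannot be ranked against each other.

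Camk2b encodes the beta subunit, which binds actin in spines. Its bright probe set (1375575_at) had 7897, 9280, 8750 and 7440 in saline and 7572, 7534, 7945 and 7908 in olanzapine. The olanzapine arrays lay close together, with a coefficient of variation of 2.80% against 9.93% in saline, and inside the saline range. The difference was -0.10 (SE 0.08, limma adjusted p = 0.799), and its sign turned to 0.061 after quantile normalization and 0.045 after cyclic loess. It was -0.050 without saline 15 and -0.16 without saline 19. The dimmer probe set (1398251_a_at) was at 158 ± 63.6 in saline and 179 ± 27.3 in olanzapine (SD, n = 4), a difference of 0.16 (SE 0.22) that was 0.0063 without saline 15 and 0.32 without saline 14. Across the 8 arrays the 2 correlated at r = -0.85 (exact permutation p = 0.00923, 0.0923 over the 10 pairs) and rho = -0.69 (exact permutation p = 0.0694, 0.231 over the 10 pairs). Within groups, after each group's mean was removed, r was -0.85, and after quantile normalization it was -0.60. Without the 2 arrays farthest from the median of the bright probe set r was -0.13. Leaving these out also narrows the range of values, so it cannot show whether the relation rests on them.

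Camk2d and Camk2g encode the delta and gamma subunits, which are widely expressed outside the brain as well. The bright probe set of Camk2d (1368834_at) had 6674, 6162, 5640 and 5810 in saline and 5325, 5793, 4966 and 5623 in olanzapine. Saline 14, 15 and 19 were above all olanzapine arrays, and saline 17 was below olanzapine 14. The difference was -0.16 (SE 0.09, limma adjusted p = 0.671), or -0.046 after quantile normalization. The dimmer tested probe set (1368833_at) differed by -0.32 (SE 0.26), the largest negative value among members as deposited, and by -0.097 without olanzapine 19, whose 38.8 was the lowest value. Another (1371263_a_at), not tested, was at 39.3 to 70.7 in saline and 69.3 to 104 in olanzapine. The Camk2g probe sets, not tested, were at 84.2 to 98.7 in saline and 78.1 to 146 in olanzapine (1369993_at), and at 20.1 to 267 and 40.6 to 321 (1381936_at). The values of the last were scattered widely in both groups.

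Camk4 encodes CaMKIV. Its brighter probe set (1369752_a_at) had 410, 522, 529 and 478 in saline and 339, 565, 541 and 356 in olanzapine. The olanzapine arrays formed a high pair, 14 and 18, and a low pair, 9 and 19, on either side of the saline range. The difference was -0.12 (SE 0.17, limma adjusted p = 0.894). It was -0.011 without olanzapine 9 and -0.23 without olanzapine 14. The other probe set (1369753_at) was near the limit of the filter at 72.2 to 151 in saline and 97.2 to 144 in olanzapine, a difference of 0.095 (SE 0.22) that was -0.022 without saline 14 and 0.20 without saline 19.

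Nrgn had a single probe set (1370211_at). It had 3027, 5347, 3580 and 3982 in saline 14, 15, 17 and 19 and 3313, 3323, 3605 and 3071 in olanzapine 9, 14, 18 and 19. Saline 15 was the highest and saline 14 the lowest of all 8 arrays, so the saline group enclosed the olanzapine group. Means were 3984 ± 989 and 3328 ± 218 (SD, n = 4 each). The difference was -0.23 with a 95% interval of -0.52 to 0.062 (limma adjusted p = 0.717). It was -0.077 without saline 15 and -0.35 without saline 14. After quantile normalization it was -0.18, and the bin of probe sets at the same brightness had a median of -0.043 as deposited.

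The genes around these members were taken from a list of 31 genes of calmodulin, its binding proteins, further kinases, calcineurin partners and targets. Of these 27 had a probe set with 1 symbol and 21 had one bright enough to test, counted by the probe set with the highest mean. By limma 0 of 21 passed the adjusted test, and 1 higher and 2 lower ones had an unadjusted limma p under 0.05, where 4.59% of all tested probe sets were higher and 3.73% lower in this way. Above 0 were 8 and below 0 were 13, where 44% of all probe sets were below 0. Their median was -0.054, beside 0.027 over all probe sets tested. Calm3, a calmodulin gene, had no probe set with 1 symbol, and the calmodulin gene Calm2 averaged 6914 ± 457 and 6053 ± 436 in saline and olanzapine (SD, n = 4 each). Its groups did not overlap as deposited but overlapped after quantile normalization, and its difference was -0.19 (SE 0.08, limma adjusted p = 0.555) or -0.062 after quantile normalization. Gap43, a growth cone protein gene related to Nrgn through its calmodulin-binding motif, was at a difference of -0.25 with an SE of 0.09, which became -0.044 under quantile normalization. Calm2 and Gap43 also lay among the brightest 5% of probe sets. Of all tested probe sets 2.07%, and of the brightest 5% of them 18.6%, were lower without overlap as deposited.

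Camk1g, which encodes a CaMKI isoform anchored to membranes, had the highest difference of the list. It had 434, 480, 474 and 325 in saline and 623, 638, 611 and 520 in olanzapine. Every olanzapine array was above every saline array, also after quantile normalization, but the adjusted test was not passed. Over all tested probe sets 2.4% were higher in this way as deposited and 1.99% after quantile normalization. The difference was 0.44 (SE 0.14, limma adjusted p = 0.436), 0.39 after quantile normalization, and 0.33 without saline 19. Its second tested probe set differed by 0.15 (SE 0.20) and its groups overlapped.

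Other kinase and calcineurin partners did not pass the test. Camkk1, the gene of a kinase upstream of CaMKI and CaMKIV, differed by -0.20 (SE 0.12), and Camk2n1, a CaMKII inhibitor gene, by 0.065 (SE 0.13). Ppp3r1, the calcineurin B subunit gene, differed by -0.054 (SE 0.10), a sign that turned to 0.017 after quantile normalization. Among calcineurin regulators, Rcan1 differed by 0.0046 (SE 0.20), or -0.046 after quantile normalization. Rcan2 differed by -0.19 (SE 0.11), Cabin1 by -0.21 (SE 0.13) and the anchor gene Akap5 by 0.23 (SE 0.26), the last by 0.0028 without olanzapine 14 and 0.39 without saline 17. The NFAT gene Nfatc2 differed by 0.25 (SE 0.18), and Pcp4l1, which encodes a small protein with a calmodulin-binding motif, by 0.28 (SE 0.18). These were 0.13 for Nfatc2 without saline 17 and 0.17 for Pcp4l1 without saline 19. Without saline 15 Camkk1 was at -0.12, and without olanzapine 14 Rcan2 was at -0.12.

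**Figure D4:**
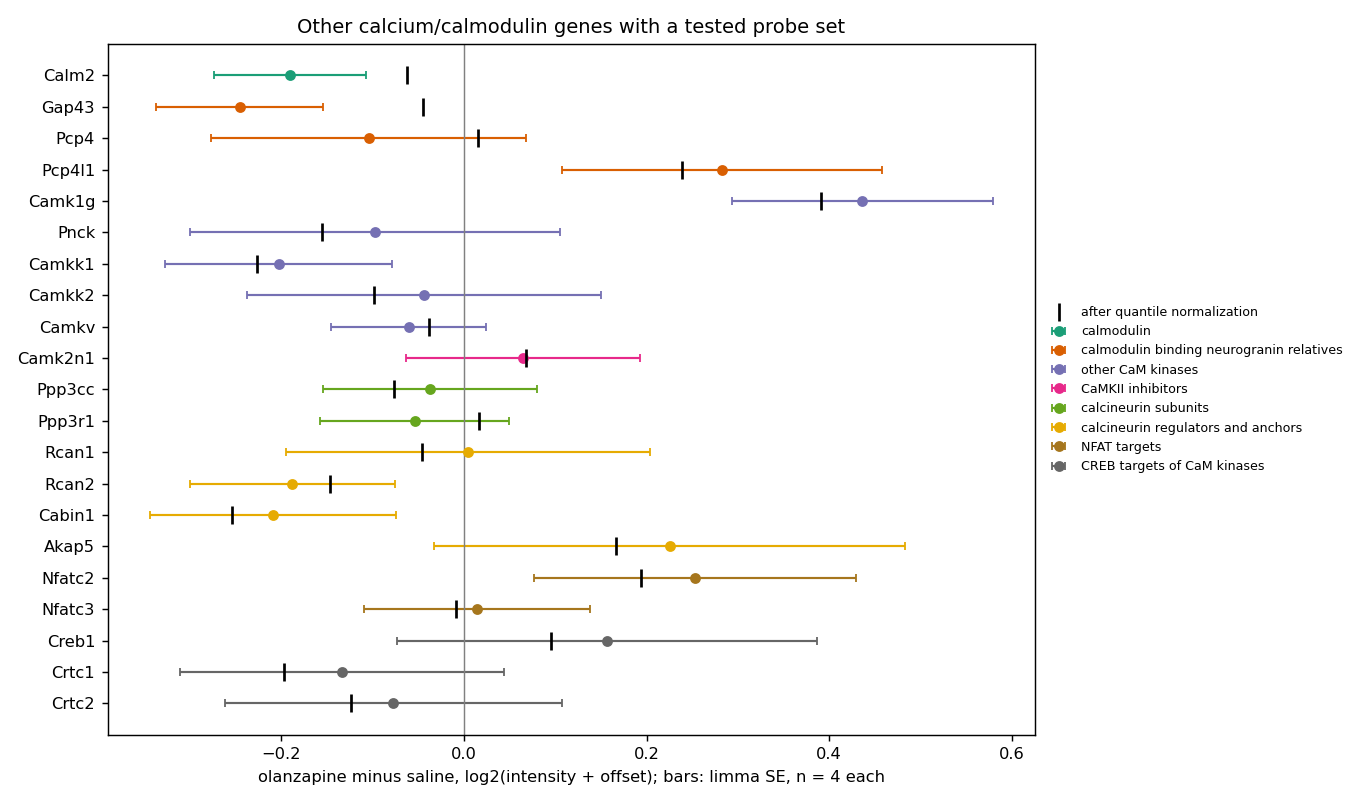
Olanzapine minus saline in log2(intensity + 63.4) for the 21 other calcium/calmodulin genes with a tested probe set; points with bars are limma estimates ± SE from 4 arrays in each group, coloured by list, and vertical ticks give the difference after quantile normalization. Camk1g is highest at 0.44 and Gap43 lowest at -0.25, and the tick of Gap43 lies at -0.044.

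Since these are whole-tissue samples, fewer cells of a type and less RNA per cell cannot be told apart. Of 8 markers of excitatory neurons, the cells in which Camk2a and Nrgn are enriched, 6 were tested, 3 above and 3 below 0, with a median of -0.0058. Their mean log2 level was 9.70 to 9.90 in saline and 9.75 to 9.91 in olanzapine. The vesicular glutamate transporter gene Slc17a7, which defines them, was at 2352 ± 197 in saline (SD, n = 4) and differed by -0.055. Among striatal markers Drd2 and Adora2a were too dim to test, and the 5 tested had a median of 0.099, 3 above and 2 below 0. Of the tested ones Pde10a and Penk were bright, with saline means of 2007.5 and 1634. Ppp1r1b, Tac1 and Rgs9 averaged 369, 235 and 186 in saline. All 7 tested astrocyte markers were below 0 as deposited. Of these, 2 had an unadjusted limma p under 0.05, against 3.73% of all tested probe sets lower, and 0 an adjusted one. Those were Slc1a3, at -0.30, and Gja1, at -0.22. After quantile normalization only Gja1 turned, to 0.094, and Slc1a3 was at -0.11. The groups of Slc1a3 did not overlap under either scaling, and 2 of its 3 tested probe sets were below 0. Over all tested probe sets 2.07% were lower without overlap as deposited, and 1.72% after quantile normalization. The astrocyte markers had a median of -0.16 as deposited and -0.076 after quantile normalization, with list levels of 11.42 to 11.51 in saline and 11.09 to 11.45 in olanzapine. All 7 meningeal markers were above 0, 5 of them at an unadjusted limma p under 0.05, against 4.59% of all tested probe sets, and 0 at an adjusted one. Their median was 0.57, with levels of 8.28 to 8.43 in saline and 8.66 to 9.51 in olanzapine. The part of these cell types in the members' values was not tested.

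For the brightest probe set of each tested member, the 3 genes most like it across the 8 arrays were taken by Pearson's r on the deposited scale, out of 10123 genes, and so are the highest of many values. For Camk4 they were Tusc2, Uck2 and Hpca at r = 0.98, 0.97 and 0.95, and 0.98, 0.97 and 0.86 after quantile normalization. For Nrgn they were Snrnp200, Serinc3 and Ngef at 0.97, 0.95 and 0.94 (0.90, 0.52 and 0.91 after quantile normalization), and for Camk2a Septin8, Mbtd1 and Ly96 at 0.96, 0.96 and 0.95 (0.95, 0.92 and 0.92). For the bright members the likeness was mostly smaller after quantile normalization. Nlk, Prnp and Hnrnpa1 correlated with Ppp3cb at 0.99 each as deposited and at 0.62, 0.63 and 0.82 afterwards. For Ppp3ca the genes were Ctnnb1, Tspan7 and Scd2, at 0.98, 0.98 and 0.96 and then 0.70, 0.62 and 0.76. For Camk2b they were Coq8a, Zdhhc3 and Adam23, at 0.97 each and then 0.16, 0.12 and 0.76, and for Camk2d Cdkl2, Kdm4d and Isca2, at 0.95, 0.94 and 0.93 and then 0.84, 0.70 and 0.44. These are descriptions over 8 arrays that share their scaling.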

How the data were processed

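RNA of frontal cortex from 8 rats, 4 given saline and 4 olanzapine, was hybridised to one array each, and the authors deposited 1 linear intensity per probe set and array, above 0 throughout and scaled per array to a trimmed mean of about 500 as the values show. The sources used here give neither the software nor its background correction, probe summary and detection calls. Arrays carry no counts, so their number limits the precision. Of the 31042 probe sets that are not controls, 20826 had 1 symbol in the platform table, 436 several and 9780 none. The symbols matched RefSeq wherever the Entrez identifier was found, for 20758.

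Intensities were taken as log2(intensity + 63.4), the 25th percentile of all values, which understates differences of dim probe sets. Probe sets whose mean over the 8 arrays was above the 40th percentile were tested with limma 3.58.1 in R 4.3.3 (lmFit, eBayes with trend, no covariates, two-sided, Benjamini-Hochberg adjustment over 18625). The fit was tested on simulated data. Permutation tests were exact. Intervals are at 95%. Named were all member probe sets, 6 genes of the surrounding list whatever their p, 1 of which is not reported here, and the 8 others with the smallest p. Members, lists and tests were chosen with earlier results of these data known. Alternatives were quantile, median and cyclic loess scaling, other added values and filters, no trend, array weights, each array left out, and the animal number as a block. Same-numbered arrays, 14 and 19 of each group, are different animals whose deviations correlated at 0.075 and 0.11.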

Additional observations from a re-analysis of the deposited data

How the results depend on the processing

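By limma 0 members passed the adjusted test under every alternative run. Over the whole array 0 probe sets passed in each, except 6 with the animal number as a replicate block and 0 to 107 with 1 array left out, 107 without saline 19 and 1 without olanzapine 9. The median difference of members, -0.12, was -0.014 after quantile normalization, -0.17 after median centring, -0.044 after cyclic loess, 0.060 without the filter, -0.062 with the block, and -0.19 to -0.077 with 1 array left out. Members whose groups did not overlap numbered 2 as deposited, 0 after quantile normalization, 0 after cyclic loess and 1 after median centring. Of all tested probe sets 4.47%, 3.72%, 3.79% and 3.09% did not overlap in these settings, both directions counted. With 1 array left out there were 2 to 4 such members, where the share of all tested probe sets was 6.78% to 11.5%. Quantile normalization equalises the arrays' distributions by construction, and the cause of the other shifts was not tested.

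Signs turned, with no adjusted p under 0.05, as follows. After quantile normalization, median centring and cyclic loess, Ppp3cb 1387261_at was at -0.035, -0.028 and -0.027, and Rcan1 at -0.046, -0.047 and -0.061. After quantile normalization and cyclic loess, Camk2b 1375575_at was at 0.061 and 0.045 and Ppp3r1 at 0.017 and 0.033. Rcan1 was at -0.035 with array weights. With the block, which rests on animals 14 and 19 alone, Camk4 1369752_a_at was at 0.019, Camk2b at 0.010 and -0.071, Camk2a 1381637_at at -0.020, Ppp3r1 at 0.18 and Rcan1 at -0.24. With 1 array left out, Camk4 1369753_at ran from -0.022 to 0.20, Ppp3cb 1387261_at from -0.024 to 0.12, Camk2n1 from -0.041 to 0.17, Ppp3r1 from -0.12 to 0.019 and Rcan1 from -0.12 to 0.14. No group of 4 held an array far enough from the rest to be listed for a closer look.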
